A study of Mus musculus with 3 samples.

Results

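Fibrinogen and the other proteins considered here are made by the liver and secreted into the blood. The 10 genes are Fga, Fgb and Fgg, which encode the 3 chains of fibrinogen, F2 (prothrombin), Serpinc1 (antithrombin), Vtn (vitronectin), Ambp (the precursor of alpha-1-microglobulin and bikunin), Ahsg (fetuin-A), Ttr (transthyretin) and Trf (transferrin). They were chosen by name, out of 21864 protein-coding genes in the annotation, and each was described in the gene body and 50 kb on either side. Fibrinogen is the soluble precursor of the clot: thrombin, which is cut from prothrombin, removes short peptides from it so that it polymerises to fibrin, and antithrombin blocks thrombin. Hepatocytes are the main source of these proteins, and many of their genes are known targets of the liver transcription factors HNF1, HNF4A, FOXA and C/EBP. In the fetus the liver is also the main site of blood formation, so that hepatoblasts, the precursors of hepatocytes, share the organ with many developing red cells.

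The data were DNase-seq of liver from mouse embryos of 13.5 days, a method in which DNase I cuts accessible DNA and the cuts are counted. All samples belonged to 1 group: wild-type C57BL/6N,129 embryos with 1 copy of the A20 YAC (a yeast artificial chromosome, which every sample carried). The group had 3 libraries, numbered as biological replicates 1, 2 and 3, with separate biosamples but a single named donor, so the spread between them may be partly technical. There was no control tissue, no treatment and no second time point, so no test between groups was possible and the values are descriptions.

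The libraries differed widely in how much was listed. Peaks numbered 34369, 122281 and 60862 in replicates 1, 2 and 3, and footprints (short protected stretches inside open chromatin) numbered 89836, 342756 and 156638. Read totals were not used here, so the sequencing depth behind a value is unknown. An unlisted promoter is not taken as closed, since a site can fall below what a library allowed to be called. The labelled tissue was checked against marker genes. All 3 libraries listed a promoter peak for 9 of 10 erythroid markers and for 3 of 10 hepatoblast markers, beside 51.4% of all protein-coding genes. The same held for 1 of 6 endothelial, 3 of 6 mesenchymal, 0 of 6 myeloid and 0 of 4 megakaryocyte genes. The 3 hepatoblast markers were Foxa3, Prox1 and Hhex. The promoter of Foxa3, the highest of them with 4.23, 13.6 and 8.09, overlaps that of Sympk. Alb, which encodes albumin and defines the hepatocyte lineage, was unlisted at its promoter in every library, and Afp, which encodes alpha-fetoprotein, was listed in replicates 2 and 3. In a whole organ, fewer cells of a type and less open chromatin per cell cannot be told apart.

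The promoter sequences of the genes whose peaks are described first are shown here, so that the liver-factor letters can be read against the peaks. They come from the RefSeq promoter table of GRCm38.p6 (mm10), which held an entry for 8 of the 10 genes, all but Ttr and Trf. Each run covers up to 200 bases before the RefSeq start site, without bases that the annotation places in an exon, and reads 5′ to 3′ along the gene. Capitals mark the letters GTTAATNAT (HNF1), CAAAGTNCA (HNF4A), TGTTTNC (FOXA) and TTGCNNAA (C/EBP) on either strand.
Fga promoter, chr3:83025953-83026075, plus strand: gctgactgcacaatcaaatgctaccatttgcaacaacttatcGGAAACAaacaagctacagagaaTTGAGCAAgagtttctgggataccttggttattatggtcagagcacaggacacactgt
Fgb promoter, chr3:83049864-83050063, minus strand: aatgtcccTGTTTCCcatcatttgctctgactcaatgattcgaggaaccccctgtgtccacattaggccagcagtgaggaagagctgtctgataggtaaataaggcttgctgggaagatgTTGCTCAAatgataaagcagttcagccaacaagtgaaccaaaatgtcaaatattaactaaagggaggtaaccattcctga
Fgg promoter, chr3:83007524-83007723, plus strand: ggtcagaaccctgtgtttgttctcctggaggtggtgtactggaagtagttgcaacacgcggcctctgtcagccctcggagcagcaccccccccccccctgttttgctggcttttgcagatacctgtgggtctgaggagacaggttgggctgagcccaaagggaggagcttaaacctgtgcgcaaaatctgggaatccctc
Ambp promoter, chr4:63154174-63154372, minus strand: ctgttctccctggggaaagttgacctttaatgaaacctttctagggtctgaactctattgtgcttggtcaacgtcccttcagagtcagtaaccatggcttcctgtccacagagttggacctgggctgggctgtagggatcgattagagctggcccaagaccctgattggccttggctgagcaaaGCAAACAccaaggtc
Ahsg promoter, chr16:22891815-22892014, plus strand: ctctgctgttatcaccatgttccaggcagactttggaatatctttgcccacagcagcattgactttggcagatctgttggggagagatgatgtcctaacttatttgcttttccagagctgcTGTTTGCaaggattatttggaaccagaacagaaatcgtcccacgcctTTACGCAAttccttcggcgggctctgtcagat
The Fga stretch holds 1 FOXA and 1 C/EBP match and the Fgb stretch likewise 1 of each, whereas Fgg holds none of these letters. A further Fga match, the HNF1 letters ATGATTAAC at chr3:83026107-83026115, starts 46 bases before the RefSeq start site, in bases that the annotation places in an exon. Ambp has FOXA letters 16 bases before the start site, and Ahsg has FOXA letters 79 and C/EBP letters 32 bases before it.

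Promoters of these genes were almost never listed in replicate 1 and mostly listed in replicates 2 and 3. A promoter here is the sequence within 1000 bp of a transcription start site (TSS) of one of the gene's protein-coding transcripts. In replicate 1 a promoter peak was present at 1 of the 10 genes, beside 53.9% of all protein-coding genes. Replicate 2 had one at 8 of 10, beside 67.3%, and replicate 3 at 8 of 10, beside 56.4%. The mean was 5.67 ± 4.04 genes per library (SD, n = 3). Trf alone was listed in every library, 1 of 10 beside 51.4% of all genes. Of the other genes, Fgb, F2, Vtn, Ambp, Ahsg and Ttr had a peak in replicates 2 and 3 and none in replicate 1. That is 6 of 10, beside 4.49% of all genes with the same pattern. Fga had a peak in replicate 2 alone, Fgg in replicate 3 alone and Serpinc1 in none. Without replicate 1, the number with a promoter peak in every remaining library was 7 in place of 1. Hepatoblast markers had a promoter peak at 3, 9 and 6 of 10 in replicates 1, 2 and 3, while erythroid markers stood at 9, 10 and 10 of 10. The other marker lists were also lowest in replicate 1 and highest in replicate 2, as was the share of all genes. Endothelial genes stood at 1, 3 and 2 of 6 and mesenchymal genes at 3, 6 and 4 of 6. Myeloid genes stood at 0, 2 and 1 of 6 and megakaryocyte genes at 0, 3 and 1 of 4. The part of cell type shares in these counts was not tested.

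The peaks were low in signal beside those of other promoters. The signal, as the authors deposited it for each library, was highest at Trf, with 0.761, 1.03 and 0.997 in replicates 1, 2 and 3. The median over all protein-coding promoters that had a peak was 3.00, 5.11 and 4.31 in the same order. Ranked among all protein-coding genes, with genes lacking a peak at 0, the median percentile of the 10 genes was 0, 40.96 and 50.6, with a mean of 30.5 ± 26.9 (SD, n = 3). Any listed peak ranks above every gene without one, so the lowest percentile of a listed promoter depends on the library. Promoter peaks were listed for 53.9%, 67.3% and 56.4% of all genes in replicates 1, 2 and 3. Even the highest, Trf, stood at percentiles of 50.9, 50.4 and 55.0. These lie close to the middle of all genes, but its signals lay below the median of promoters with a peak.

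**Figure D1:**
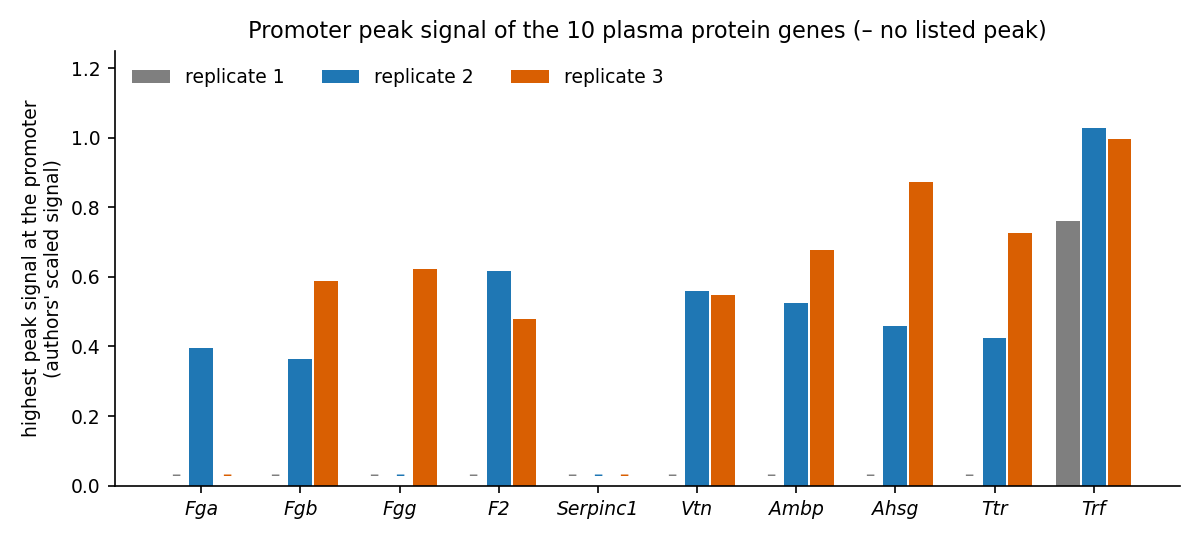
Highest peak signal at the promoter (y axis, the authors' scaled signal) of each of the 10 genes (x axis) in replicates 1, 2 and 3 (bars, 1 library each; a dash marks no listed peak). Only Trf has a bar in replicate 1, and every bar lies at or below 1.03.

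The number of listed peaks bears on these counts, so the 34369 strongest peaks of each library, as many as replicate 1 had, were also used. Replicate 1 then keeps Trf alone, beside 53.9% of all genes. In replicate 2 the count was 1 of 10 (Trf), beside 52.5%, and in replicate 3 it was 5 of 10 (Fgg, Ambp, Ahsg, Ttr and Trf), beside 49.2%. At equal numbers, replicate 3 was thus the one library with more than Trf listed. In the authors' shorter peak list the count was 0 of 10 in replicate 1, beside 47.8%, 1 of 10 in replicate 2 (Trf), beside 60.1%, and 7 of 10 in replicate 3, beside 51.7%. The 7 were Fgb, Fgg, Vtn, Ambp, Ahsg, Ttr and Trf.

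At the 7 of these promoters with a peak in both libraries, replicate 3 gave a higher signal relative to replicate 2 than it gave most other genes. Fga, with a peak in replicate 2 alone, Fgg, with one in replicate 3 alone, and Serpinc1, with none, have no ratio. This ratio was examined after the values had been seen. Over the 12217 protein-coding genes with a promoter peak in both libraries the median ratio of signal in replicate 3 to replicate 2 was 0.649. It was 1.90 at Ahsg, 1.72 at Ttr, 1.61 at Fgb and 1.29 at Ambp. Vtn stood at 0.978, Trf at 0.970 and F2 at 0.773. All 7 genes with both peaks lay above the median of all genes, and Ahsg, Ttr and Fgb above more than 99% of them (99.6%, 99.4% and 99.2%). Among the 1273 genes whose signal in replicate 2 fell in the range of these 7, the median ratio was 0.664. It ran from 0.286 to 4.46 there, and 666 of the 1273 lay above the median of all genes. The percentages given for Ahsg, Ttr and Fgb are over all genes, and a rank among the 1273 was not computed. The ratio was not particular to these genes: of the 20 other plasma protein genes with both peaks 17 lay above the median of all genes, and of the 10 erythroid markers 9 did, with a median of 0.985. The 6 hepatoblast markers with both peaks had a median of 0.786, and 3 of them lay above. With a promoter of 2500 bp on either side 6 of 7 lay above the median of all genes. At that width the Vtn promoter takes in the region at the promoter of its neighbour Sarm1, with 8.33 in replicate 2 and 5.35 in replicate 3.

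**Figure D2:**
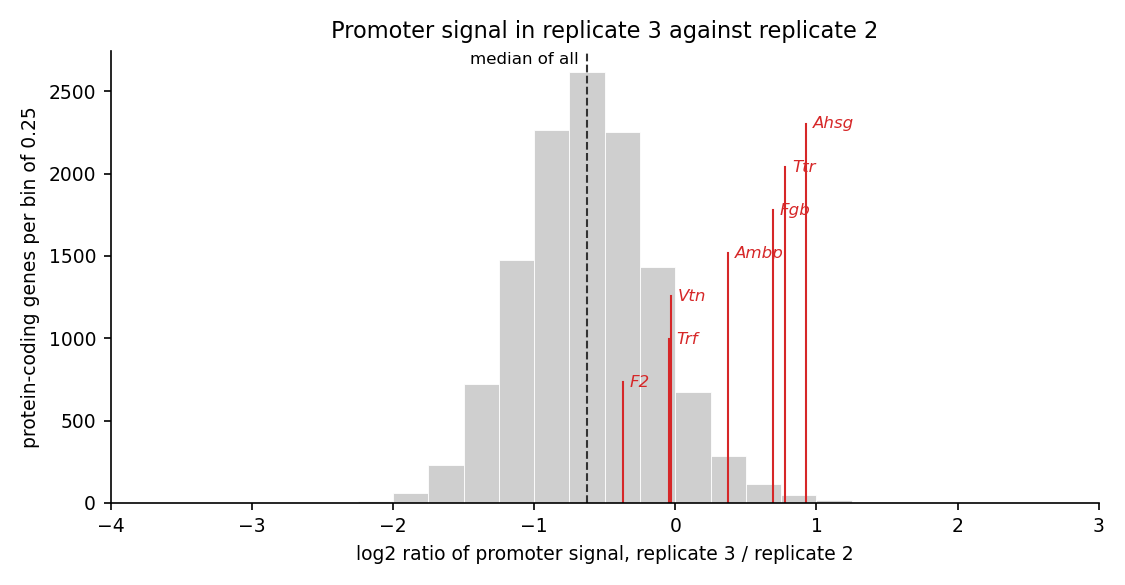
Histogram of the log2 ratio of promoter signal, replicate 3 over replicate 2, for the 12217 protein-coding genes with a promoter peak in both (y axis, genes per bin), with the 7 plasma protein genes as red lines whose heights are for legibility only. All 7 lines lie to the right of the dashed median of all genes.

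The listed intervals with a false discovery rate (FDR) gave the same picture of presence. An interval with an FDR of at most 0.05 lay in the promoter of 1 of 10 genes in replicate 1, beside 55.2% of all genes. In replicate 2 it was 8 of 10, beside 68.4%, and in replicate 3 it was 8 of 10, beside 57.4%. The smallest FDR at the promoter was smaller in replicate 3 than in replicate 2 for all 7 genes with intervals in both, beside 5.71% of the 12426 protein-coding genes with both. In 6658 of those 12426 the 2 values were equal. At Ahsg the smallest FDR was 0.000849 in replicate 2 and 4.53e-12 in replicate 3, and at F2 it was 0.0285 and 0.00342. Footprints at the promoter were listed for 0 of 10 genes in replicate 1, beside 51.8%, for 6 of 10 in replicate 2, beside 65.9%, and for 6 of 10 in replicate 3, beside 54.2%. In all, 0, 14 and 21 footprints lay at these promoters in replicates 1, 2 and 3.

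The 3 fibrinogen chain genes lie side by side on chromosome 3, Fgg at chr3:83007724-83015049 and Fga at chr3:83026076-83033627 on the plus strand, and Fgb at chr3:83040141-83049863 on the minus strand. Their promoters did not share a pattern. Fgb, the beta chain, had a promoter peak of 0.365 in replicate 2 and 0.588 in replicate 3, in the region chr3:83049719-83049919. Fga, the alpha chain, had one of 0.396 in replicate 2 alone, a region of 102 bp that covers the HNF1 letters given above. Fgg, the gamma chain, had one of 0.623 in replicate 3 alone, in a region that also overlaps the promoter of the gene model Gm30097. No library thus listed a peak at all 3 chains. The FOXA and C/EBP letters printed for Fga and Fgb lay outside the peaks of every library, but the Fgb peak region itself held FOXA letters downstream of the start site. A footprint at Fgb recurred in replicates 2 and 3, at chr3:83049783-83049795 in replicate 2 and chr3:83049777-83049795 in replicate 3, which is downstream of the start site. Footprints at Fga (1, in replicate 2) and Fgg (4, in replicate 3) had no counterpart in another library.

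F2 encodes prothrombin, the zymogen of thrombin, and lies at chr2:91625320-91636414 on the minus strand. Its promoter peak measured 0.618 in replicate 2 and 0.478 in replicate 3, so that F2, like Vtn and Trf, was higher in replicate 2 among the 7 genes with both peaks. The stronger region of F2 lay within the gene, 1366 bp downstream of the nearest TSS, and overlapped an annotated exon. It measured 1.80 in replicate 2 and 1.23 in replicate 3 and was not listed in replicate 1. These values are above those of any of the 10 promoters. It is printed here because it was the strongest region inside or at the promoter of any of the 10 genes in replicate 2, with capitals for the GATA-factor letters AGATAA and the C/EBP letters TTGCNNAA on either strand; the sequence is from GRCm38.p6.
F2 region, chr2:91634941-91635140, plus strand: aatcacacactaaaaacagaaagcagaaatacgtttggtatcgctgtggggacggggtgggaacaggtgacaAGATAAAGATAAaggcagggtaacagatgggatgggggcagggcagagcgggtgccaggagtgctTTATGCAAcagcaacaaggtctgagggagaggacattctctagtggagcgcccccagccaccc
The GATA letters occur there next to each other, followed by 1 C/EBP match. GATA letters were found at 10.99% of all open regions (the 200 bp around the middle) and C/EBP letters at 6.88%.

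Serpinc1 encodes antithrombin, the main inhibitor of thrombin, and lies at chr1:160978585-161005863 on the plus strand. It was the only one of the 10 without a promoter peak in any library. The nearest listed FDR interval lay 55613, 8405 and 8393 bp from a TSS in replicates 1, 2 and 3. In replicates 2 and 3 that interval lay beside a region inside the gene, at chr1:160987061-160987560, with signals of 0.545 and 0.388. That region held 6 footprints in replicate 2 and 3 in replicate 3.

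Vtn, Ambp and Ahsg encode abundant plasma proteins with roles outside the clotting cascade itself. Vitronectin binds cells to the matrix and stabilises an inhibitor of plasminogen activation, and its gene lies at chr11:78499091-78502324. The Vtn promoter measured 0.559 in replicate 2 and 0.547 in replicate 3. A second region, 1871 bp downstream in the gene body, had 0.566 and 0.609, and its middle 200 bp held HNF4A, FOXA and C/EBP letters. A footprint of replicate 2 at chr11:78499133-78499151 overlapped the FOXA letters TGTTTCC at the promoter.

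Ambp, at chr4:63143275-63154799 on the minus strand, measured 0.524 in replicate 2 and 0.678 in replicate 3 at its promoter. It carried 4 promoter footprints in replicate 2, more than any other of the 10 genes, and 5 in replicate 3, as many as Trf. At 1 place they overlapped between the libraries. A region 4978 bp upstream, between genes, was listed in all 3 libraries with 0.694, 1.00 and 1.15. It was the strongest region of the Ambp window and the only one there found in every library. It is printed because Ambp was the only one of the 10 genes whose window was led by a region that lay at no promoter. Capitals mark C/EBP letters, and the sequence is from GRCm38.p6.
Ambp upstream region, chr4:63159061-63159240, plus strand: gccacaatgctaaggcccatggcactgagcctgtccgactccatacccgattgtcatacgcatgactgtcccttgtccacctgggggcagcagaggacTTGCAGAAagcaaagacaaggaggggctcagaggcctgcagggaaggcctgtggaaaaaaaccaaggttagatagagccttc
A further Ambp region, 2906 bp upstream, had 0.524 and 0.609 in replicates 2 and 3 and held HNF1 and FOXA letters.

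Ahsg encodes fetuin-A, a mineral-binding carrier that is abundant in fetal plasma, and lies at chr16:22891277-22899449 on the plus strand. Its promoter signal was 0.458 in replicate 2 and 0.872 in replicate 3, the widest gap between these libraries among the 7 genes with both peaks. The 3 promoter footprints of Ahsg were listed in replicate 3 alone. One of them, at chr16:22891978-22891986, overlapped the C/EBP letters TTACGCAA printed above. It was the only overlap of a footprint with liver-factor letters at the 8 promoters besides that at Vtn.

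The carriers Ttr and Trf differed in how many libraries listed them. Transthyretin carries thyroid hormone and retinol-binding protein, and transferrin carries iron to cells, developing red cells foremost. The Ttr promoter, at a region of 285 bp, had 0.424 in replicate 2 and 0.727 in replicate 3, with 3 and 2 footprints, and 2 places recurred in both libraries. That region also overlaps the promoter of Gm16090, a gene model on the same stretch. Nothing in the Ttr window was listed in all 3 libraries, and in replicate 1 no peak at all. Trf, at chr9:103204001-103230444, had a promoter peak in every library, with the signals given first above, in a region that also overlaps the promoter of Gm20425. Within Trf, an intronic region 22282 bp downstream of the nearest TSS was also in all 3 libraries, with 0.649, 1.504 and 1.40. Each of these 2 regions had its lowest signal in replicate 1. How the signal was scaled in each library is not stated in the labels. The median over protein-coding promoters with a peak was also lowest in replicate 1. Over all listed peaks, however, the median signal was highest there, at 1.16, 0.386 and 0.699 in replicates 1, 2 and 3. The 5th percentile of listed peaks was also highest in replicate 1, at 0.381, 0.0764 and 0.277 in the same order.

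The windows held 116 open regions after peaks of the 3 libraries were merged and overlapping windows joined. Of these 23 were found in all 3 libraries, 25 in 2 and 68 in 1. The share in all 3 was 19.8%, beside 19.7% of the 131881 merged regions of the genome. Of the 23, 14 (60.9%) lay at the promoter of another gene, 1 at a promoter of the 10 genes (Trf) and 1 in the body of one of them (Trf). The other 7 lay in the body of a neighbour (4) or between genes (3). Without replicate 1, 46 regions were found in both remaining libraries and 36.96% of them lay at the promoter of another gene.

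**Figure D3:**
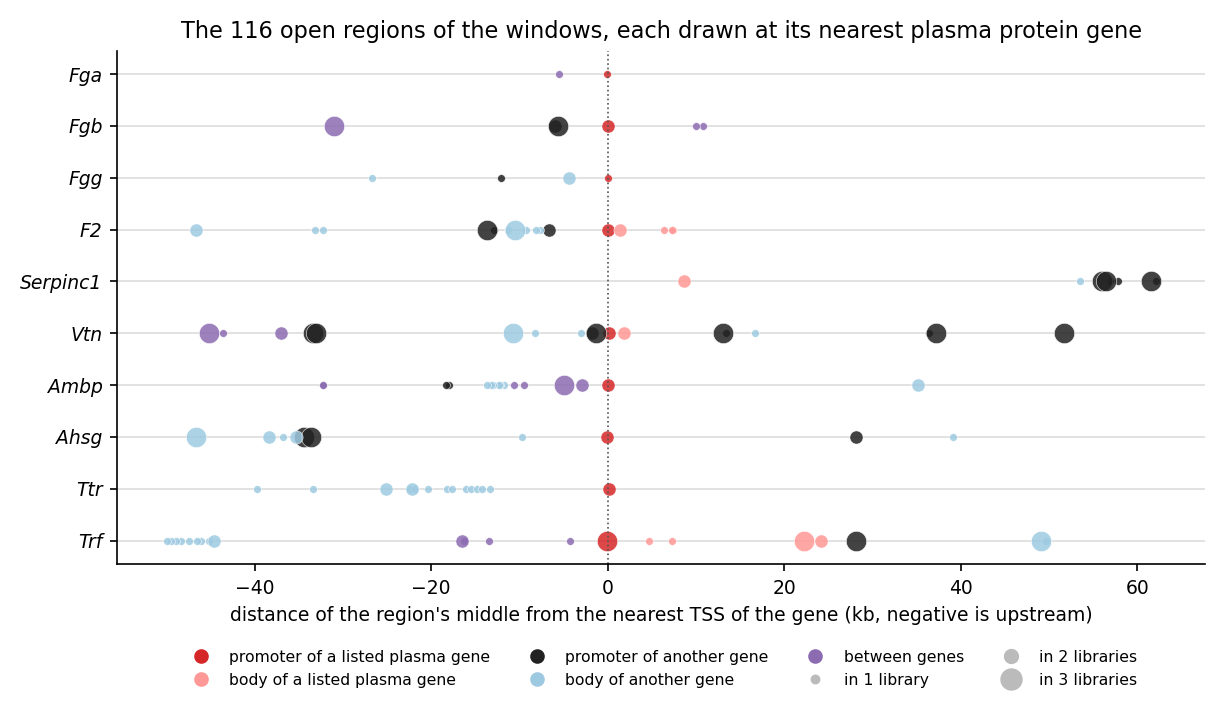
The 116 open regions by distance from the nearest TSS of the plasma protein gene they lie closest to (x axis, kb, negative is upstream; 1 row per gene), coloured by where they lie and sized by the number of libraries. Of the large points, regions of all 3 libraries, Trf alone has one at its own promoter, and the nearest large black point, at the promoter of another gene, lies 1279 bp upstream of the Vtn TSS.

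**Figure D4:**
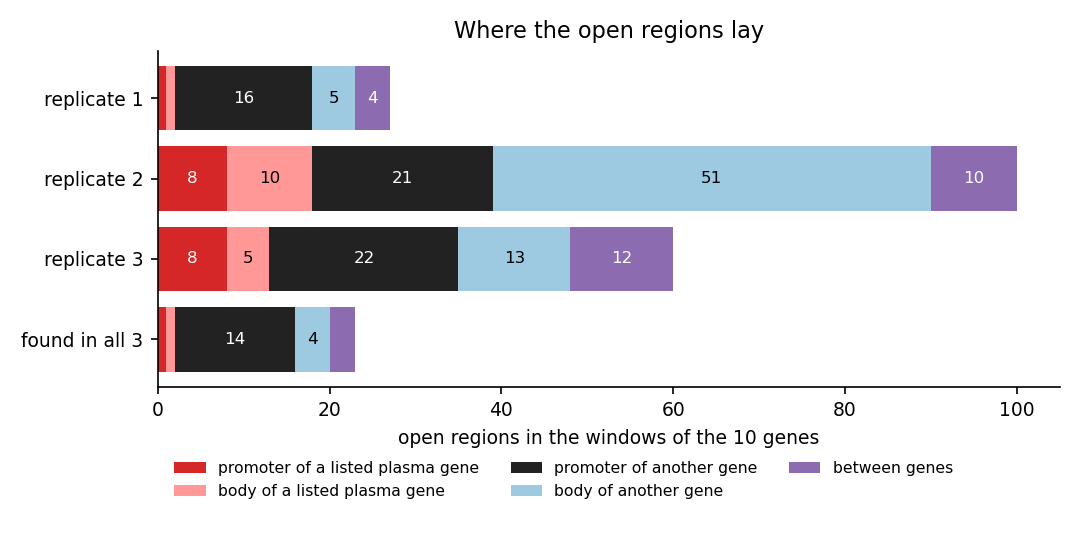
Number of open regions in the windows of the 10 genes (x axis) in each library and found in all 3 (rows), divided by where they lie. Replicate 1 has 16 of its 27 regions at promoters of other genes, and replicate 2 has 51 of its 100 in the bodies of other genes.

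The strongest region of the window belonged to a neighbour for 8 of the 10 genes. Plrg1, a spliceosome component next to Fgb, had a promoter region of 6.59, 19.2 and 13.9 and led the windows of all 3 fibrinogen genes. The promoter shared by Arhgap1 and Zfp408 led that of F2 with 5.31, 18.2 and 16.8. Ift20 and Tnfaip1 led that of Vtn, Dnajb11 and Tbccd1 that of Ahsg, Srprb that of Trf, and Gas5 and Zbtb37 that of Serpinc1. The Trf neighbour Srprb measured 3.15, 8.03 and 4.53. The number of regions in all 3 libraries per 100 kb of window was highest for Vtn, at 7.75, and 0 for Ttr, beside a median of 1.99 over all protein-coding windows. In the Vtn window 6 of the 8 such regions lay at promoters of other genes.

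Most regions found in 1 library came from replicate 2, which gave 52 of the 68, while replicate 3 gave 14 and replicate 1 gave 2. Many of the 52 lay in rows within a neighbouring gene. The body of Gm16090 upstream of Ttr held 12 of them, with signals of 0.0417 to 0.691, that of 1300017J02Rik upstream of Trf 8, with 0.0521 to 0.274, and that of Kif12 upstream of Ambp 6, with 0.167 to 0.226. In Gm16090 the 0.691 was that of chr18:20625381-20625800, and the next highest was 0.139. The median over all listed peaks of replicate 2 was 0.386. Listed FDR intervals covered 9350, 37928 and 19671 bp of the joined windows, in the order of the replicates, or 22316 ± 14472 on average (SD, n = 3). Footprints in them numbered 77, 288 and 166, a mean of 177 ± 106.

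The 8 promoters with a RefSeq entry (250 bases before to 50 after the start site) were poor in CpG. They held 3 to 9 CpG sites, with a median of 4.5, beside a median of 13 over 21262 entries. Among the 4372 protein-coding genes with 3 to 9 sites, a promoter peak was listed for 32.2% in replicate 1, 53.2% in replicate 2 and 39.1% in replicate 3, and for 8.51% in replicates 2 and 3 but not 1. For the 8 genes the counts were 0, 6 and 6, and 62.5% of them had a peak in replicates 2 and 3 but not 1. Searched on both strands, FOXA letters were in 5 of the 8 (Fga, Fgb, Vtn, Ambp and Ahsg), beside 18.1% of all entries, and C/EBP letters in 4 (Fga, Fgb, Serpinc1 and Ahsg), beside 10.2%. HNF1 letters were in 1 (Fga), beside 0.720%, and HNF4A letters in 0, beside 1.31%. Of the other letters searched, the GATA-factor letters were in 1 (Ahsg), beside 9.65%, the KLF letters CCACACCC in 0, beside 3.63%, and the TATA box letters TATAAA in 1 (Vtn), beside 12.6%. The percentages beside these letters are over all entries, not over those with 3 to 9 CpG sites. The part of base composition in them was not tested. In the windows, 73 regions lay at promoters of the 10 genes, in gene bodies or between genes, leaving out the Ttr window and the Trf promoter. Among them, the Fgg promoter region also overlaps the promoter of Gm30097. The 200 bp around the middle of each region were searched, which for a shorter region takes in bases outside it. All open regions, the comparison below, include those at promoters, whereas the 73 leave out those at promoters of neighbours. The sets are thus unlike, and the part of this in the differences was not tested. HNF1 letters were in this span for 3 of them (4.11%), beside 0.306% of all open regions, and HNF4A letters for 3 (4.11%), beside 0.980%. FOXA letters were in 14 (19.2%), beside 13.05%, and C/EBP letters in 10 (13.7%), beside 6.88%. GATA-factor letters were in 11 (15.1%), beside 10.99%, KLF letters in 3 (4.11%), beside 3.86%, and TATA box letters in 4 (5.48%), beside 4.58%. Of the 27 regions at promoters of neighbours, searched in the same span, 0 had HNF1, HNF4A, C/EBP or GATA-factor letters, 3 had FOXA letters, 1 KLF letters and 1 TATA box letters. A match describes the sequence and is not a site.

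Other plasma protein genes were listed in the same libraries, in shares no larger than those of the 10. Of 20 genes of coagulation and fibrinolysis, promoter peaks marked 1 in replicate 1, 12 in replicate 2 and 11 in replicate 3. Pros1, which encodes protein S, a cofactor of anticoagulation, had one in all 3, with 0.918, 1.88 and 0.581. F10 (factor X) and Serpinf2 (antiplasmin) came next by mean percentile, and both had 0.941 in replicate 3, with 0.920 and 0.879 in replicate 2. Of 18 complement genes, 1, 8 and 5 had a peak. The one in all 3, C8g, shares its promoter with Fbxw5, and Cfb, which encodes factor B, had one in replicates 2 and 3. Of 20 carriers and inhibitors, 2, 9 and 10 had a peak. Selenop, a selenium carrier, and Itih1, a partner of bikunin from Ambp, had one in all 3, and Igfbp1 had one in replicates 2 and 3. Over the 58 genes, the promoter was listed in every library for 4, in 2 libraries for 16, in 1 for 15 and in none for 23, which share the lowest percentile of 0. Without replicate 1, 20 of the 58 had one in both remaining libraries.

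**Figure D5:**
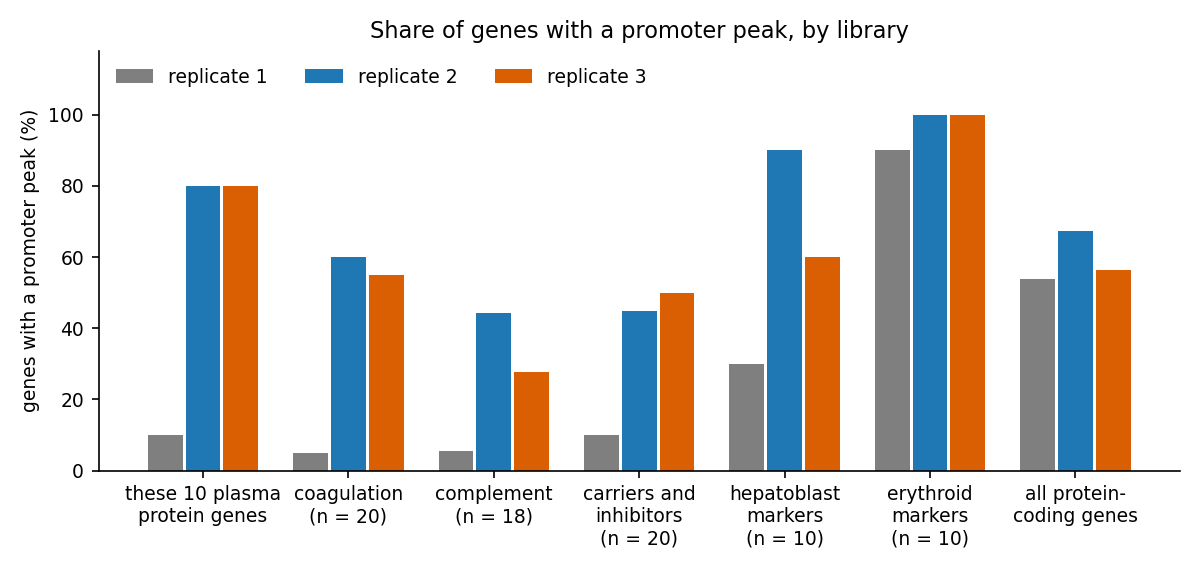
Share of genes with a promoter peak (y axis, percent) in replicates 1, 2 and 3 (bars, 1 library each) for the 10 plasma protein genes, 3 other plasma lists, 2 marker lists and all protein-coding genes. The plasma lists are at 10% or less in replicate 1, while erythroid markers are at 90% or more in every library.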

How the data were processed

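DNase-seq peaks, FDR intervals and footprints were deposited per library for 3 libraries, in mm10 per the labels. Aligner, peak caller and versions: not given in the sources used here. Peak signal is the value the authors deposited for each peak, and how it was scaled in each library is not stated in the labels. The deposited FDR intervals carry a q-value (a p-value adjusted by the authors), at most 0.05. Every row of the footprint lists that the authors deposited carries the constant 0.01, which was not used.

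The longer of the 2 peak lists of each library was used. Peaks overlapping a promoter (1000 bp around a TSS, GENCODE M21 basic) by at least 1 bp were assigned to the gene, and its signal was the highest of them. A percentile is the percentage of all protein-coding genes whose promoter signal was lower. Overlapping peaks of different libraries were joined into regions, each placed at a promoter, in a gene body or between genes. Peaks, intervals and footprints were counted within 50 kb of each gene body. Motif letters were searched on both strands in RefSeq promoter entries (300 bases) and in the 200 bp around the middle of each region, also where the region was shorter. The genome in use matched all 8 entries, and 0 peaks lay beyond a chromosome end.

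Named were all 10 genes, the strongest neighbour of each window, the promoter region and the 2 highest other regions per gene, and per plasma list the 3 highest genes and the lowest (many share 0); 1 gene that this rule names is not reported here. Regions named beyond this were chosen after their values were seen. Genes and lists were chosen with earlier results of these data known. Sepp1 is not in the annotation. Interval code was tested on simulated data. Tools were Python 3.11.15, numpy 2.4.6, pandas 2.3.3 and matplotlib 3.10.9.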

Additional observations from a re-analysis of the deposited data

How the results depend on the processing

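The alternatives were the shorter peak list, equal numbers of peaks, other promoter widths, overlaps and flanks, stricter FDR limits, and leaving out each library. Genes with a promoter peak in all 3 libraries numbered 1, but 0 with the shorter list, 2 with 2500 bp on either side, and 1 to 7 when a library was left out. The mean number per library, 5.67, was 2.67 with the shorter list and 2.33 at equal numbers of peaks. Of the 58 other plasma genes 4 had one, 2 at equal numbers of peaks and 4 to 20 with a library left out. Regions in all 3 libraries numbered 23, 10 with a flank of 20 kb, 40 with 100 kb and 23 to 46 with a library left out. The share of these at promoters of other genes was 36.96% to 60.9% with a library left out. It was 76.5% with the shorter list, 65% at equal numbers of peaks, 50% with a flank of 20 kb and 67.5% with 100 kb. A flank of 100 kb gave 44012 bp of FDR intervals and 309 footprints per library on average, and one of 20 kb gave 10958 bp and 90.7, against 22316 bp and 177. Genes whose promoter region held liver-factor letters numbered 5, and 2 when only footprints extended by 5 bp were searched. The wider flanks and the 2 remaining libraries change the counts by construction. At 2500 bp the Vtn promoter takes in the region at the Sarm1 promoter, with 4.66, 8.33 and 5.35 in replicates 1, 2 and 3. Vtn then stood at a mean percentile of 78.6 and joined Trf as a gene listed in all 3 libraries. The cause of the other changes was not tested. The median percentile of the 10 genes, 30.5 on average, was 17.0 with the shorter list, 8.48 at equal numbers of peaks and 20.5 to 45.8 with a library left out. Of 80 single-gene percentiles recomputed, 74 stayed within 1 SD, which is wide for most genes (Fga 13.2 ± 22.9), and 1 of the other 6 was higher. The ratio of replicate 3 to replicate 2 was added after seeing the data. Its median over these genes was 1.29 with 500 and 2500 bp, and 0.970 in the shorter list, where Trf alone had both peaks. No paired analysis was possible because the libraries form 1 group. Depth is unknown, and replicate 1 listed the fewest peaks.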
